A study of Homo sapiens with 8 samples.

Results

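The 29 genes described here are known targets of the transcription factor p53, chosen by name from the 35238 gene symbols of a count table of MP38 cells. Of these 29 genes, 28 passed a filter on low counts that 15085 genes passed in all. The exception was SPATA18, which works in mitochondrial quality control and had 1 count in 1 control library and none elsewhere, where a count of 0 allows up to 3 counts. MP38 is an established human uveal melanoma (UM) cell line that carries a BAP1 mutation. The cells were grown for 24 h with 0.1% DMSO alone (control) or with a drug dissolved in DMSO, which was romidepsin at 40 nM, quisinostat at 40 nM or mivebresib at 1200 nM. The first and second of these drugs are inhibitors of histone deacetylases (HDAC), and the third, mivebresib, occupies the acetyl-lysine pocket of the BET bromodomain proteins. Bulk RNA was sequenced in 2 libraries for each of the 4 groups, taken from separate wells of 1 cell line, so the tests measure the spread between wells of MP38 and not between tumours.

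p53 is a sequence-specific activator that is kept low in resting cells by the ubiquitin ligase MDM2, itself a p53 target. After DNA damage, oncogene activation or nutrient stress, p53 is stabilised and turns on genes that halt the cell cycle, repair DNA, remodel metabolism or start apoptosis. Many of its targets also answer to other regulators, and their levels alone do not measure p53 activity. p53 binds paired half-sites, together called the p53 response element.

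Promoter sequences were searched for this element because they show where such a match lies in the genes whose levels are given below. The RefSeq windows (build GRCh38.p14) ran from 250 bases upstream to 50 bases downstream of a gene start. A match was 2 half-sites of 10 bases, up to 13 bases apart, on either strand. At most 2 mismatches to the half-site consensus RRRCWWGYYY were allowed over the 20 bases, and none at its C and G. In this consensus R is A or G, W is A or T and Y is C or T. Of the 29 genes, 24 had a window, and 5 of these (20.8%) held a match, against 390 of 10921 tested genes with a window (3.57%). Counted by window, 6 of 37 member windows held a match, against 2.93% of all 35116 windows. The genes were chosen as known p53 targets, so these shares describe them, and a match in these letters is not evidence of binding. The median GC content of the members' windows was 67.2%, against 65.3% over the tested genes. The matches are printed 5′ to 3′ on the strand of the gene, with the half-sites in capitals.
MDM2, with flanks (chr12:68808883-68808982, plus strand): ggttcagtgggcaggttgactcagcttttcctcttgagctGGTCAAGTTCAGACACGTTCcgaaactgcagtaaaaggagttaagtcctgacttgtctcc
FAS (chr10:88991309-88991328, plus strand): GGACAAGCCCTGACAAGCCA
DDB2 (chr11:47214979-47214999, plus strand): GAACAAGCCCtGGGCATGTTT
AEN (chr15:88621306-88621325, plus strand): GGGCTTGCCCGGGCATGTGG
FDXR (chr17:74872996-74873025, minus strand): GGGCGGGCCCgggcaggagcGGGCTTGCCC
The DDB2 match had 0 mismatches and a spacer of 1 base, and lay at positions 6 to 26 counted from the RefSeq start, inside an annotated exon. The other matches had 2 mismatches each. That of MDM2 lay upstream of both RefSeq starts listed for it (-101 to -82 from one and -94 to -75 from the other) and outside annotated exons, whereas those of FAS (-122 to -103), AEN (-34 to -15) and FDXR (-31 to -2) lay upstream of the RefSeq start in sequence that another annotation (GENCODE 29, all transcripts) counts as exon. The gene spans of GENCODE 29, which are the ones printed below, begin further upstream than these RefSeq starts, and all 5 matches lie inside them. The FDXR match had a spacer of 10 bases. The members without a window were GADD45A, RRM2B, TP53INP1, PHLDA3 and TRIM22.

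The libraries held 28483235 to 29359024 counts, so depth hardly differed. The control libraries differed from each other more than those of any drug group, with a chi-square per degree of freedom of 58.1 against 9.52 to 9.79. Over the 28 tested p53 targets, the median absolute log2 ratio between the 2 control libraries was 0.16, against 0.24 over all tested genes, and 6 members differed by more than 0.3. The widest was PHLDA3, at 0.53. All 8 melanocyte lineage markers were detected in every group, 1 of them at no more than 3 counts with romidepsin and with quisinostat, with a summed level of 4193 to 5451 CPM (counts scaled to the size of the library) in control, 4737 to 5025 with romidepsin, 3561 to 4106 with quisinostat and 3697 to 3775 with mivebresib. Most of this sum was TYRP1, at 2747 to 4115 CPM over the 8 libraries. Of the 7 tested markers, 4 were called lower with mivebresib, 3 with quisinostat and 1 with romidepsin, with a median log2 FC of -0.717, -0.249 and -0.141. SOX10, a lineage transcription factor, fell from 216 and 202 CPM in control to 57.2 and 52.8 with mivebresib (log2 FC -1.93 ± 0.10 (SE), edgeR adjusted p = 3.8e-06). MITF, the melanocyte master regulator, stood at 351 and 349 CPM in control, 132 and 134 with quisinostat (log2 FC -1.39 ± 0.08 (SE), edgeR adjusted p = 4.19e-06) and 124 and 129 with mivebresib (log2 FC -1.47 ± 0.08 (SE), edgeR adjusted p = 4.67e-06). The 5 epithelial markers summed to at most 0.506 CPM, and the 6 immune markers to 61.3 to 83.3 CPM, of which CD68 alone gave 61.1 to 83.0. The general leukocyte marker PTPRC had at most 11 counts in a library and the T cell marker CD3E was at 0. The 6 fibroblast markers summed to 1.98 to 2.48 CPM in control, 4.23 to 5.46 with romidepsin, 8.43 to 10.9 with quisinostat and 1.28 to 1.76 with mivebresib, with LUM at 0 in all groups but romidepsin. Only 2 of the 6 were tested. COL1A1 was higher with romidepsin (log2 FC 1.51, edgeR adjusted p = 0.00391) and quisinostat (2.58, edgeR adjusted p = 6.77e-05). The other tested fibroblast marker had no call with either (log2 FC -1.16 and -1.07) and was called lower with mivebresib (log2 FC -2.17). The 4 endothelial markers summed to 0.602 to 0.913, 3.03 to 3.57, 5.16 to 5.82 and 1.13 to 1.40 CPM in the same order, with CDH5 at 0, and KDR was higher with romidepsin (log2 FC 2.42, edgeR adjusted p = 0.000429) and quisinostat (3.18, edgeR adjusted p = 2.12e-05). In bulk RNA, fewer cells of a kind and less RNA per cell cannot be told apart, and the part of these marker levels in the results below was not tested.

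In control cells, most p53 targets were expressed above the typical gene. Per kilobase of exon, 24 of the 28 members exceeded the median of the 14317 tested genes with a known length (5.45 CPM per kb), and their median lay at percentile 69.4. CCNG1, which encodes cyclin G1, was the highest at 214 CPM per kb, followed by the ribonucleotide reductase subunit gene RRM2B at 113, the secreted factor GDF15 at 98.2 and GADD45A at 79.5 CPM per kb. These 4 lay at percentile 94.6 or above. At the other end, the p53 inhibitor MDM4 stood at 0.933 CPM per kb, percentile 25.9, while its partner MDM2 stood at 19.9 CPM per kb.

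**Figure D1:**
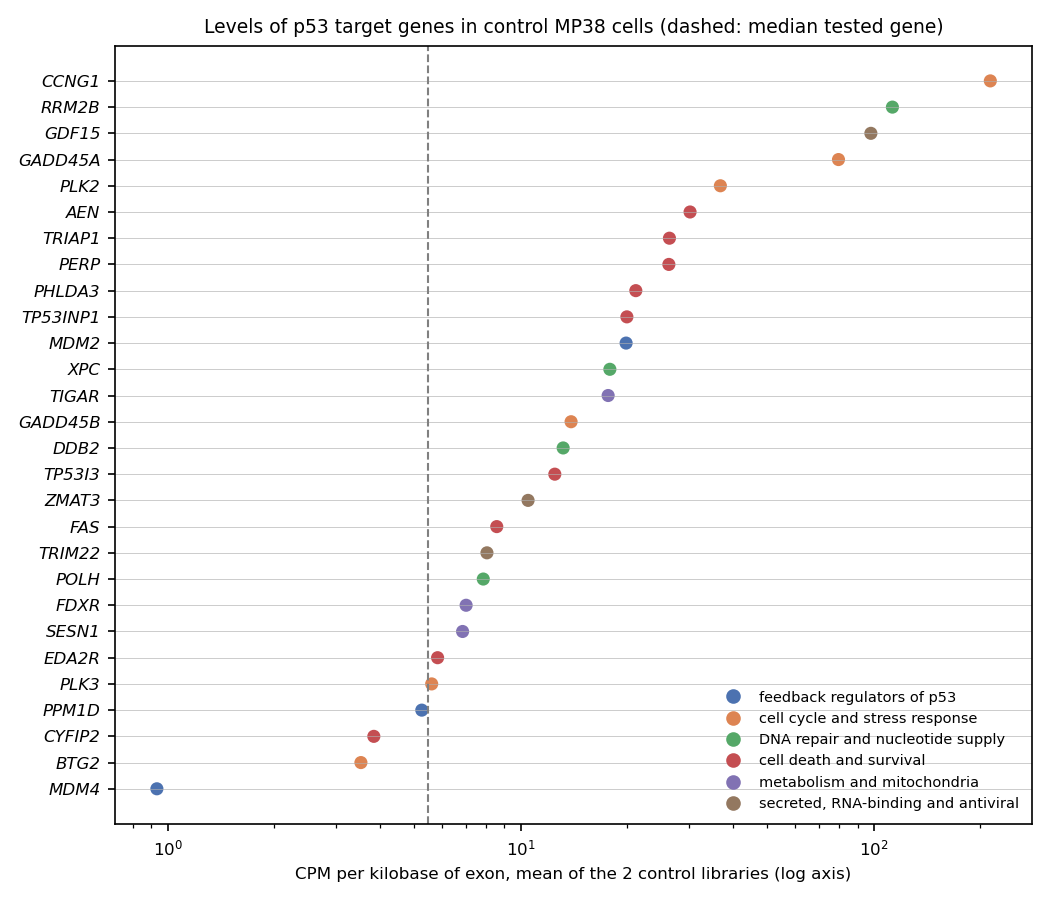
Level of each of the 28 tested p53 targets in control cells, as CPM per kilobase of exon (mean of 2 libraries, log axis), coloured by role. CCNG1, RRM2B, GDF15 and GADD45A sit above 79 CPM per kb, MDM4 sits below 1, and the dashed line marks the median tested gene at 5.45.

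Each drug moved some of these genes up and others down. All adjusted p-values are from the edgeR quasi-likelihood test with Benjamini-Hochberg adjustment over 15085 genes, a gene was called when this p was below 0.05, and fold changes are relative to the bulk of genes, since libraries were scaled by TMM. With romidepsin, 5 of 28 members were higher and 8 were lower, or 46.4% in either direction, against a background of 15.2% higher, 15.8% lower and 31% in either direction over all tested genes. With quisinostat, 5 were higher and 12 lower (60.7%), against 28%, 25.1% and 53.2%. With mivebresib, 7 were higher and 11 lower (64.3%), against 22.2%, 24.1% and 46.2%. By direction, 28.6%, 42.9% and 39.3% of the members were called lower with romidepsin, quisinostat and mivebresib, above the background in each case, and 17.9%, 17.9% and 25% were called higher, close to the background except with quisinostat, where the share was below it. The members' median log2 FC was -0.116, -0.206 and -0.034 with romidepsin, quisinostat and mivebresib, beside -0.012, -0.004 and 0.007 over all tested genes. Their median absolute log2 FC was 0.243, 0.415 and 0.542, beside 0.304, 0.433 and 0.409. The background was not matched for expression level, and the members' median level in control lay at percentile 69.4. The part of level in these shares was not tested. Most changes were small: beyond a log2 FC of 1.5, the further threshold the study used, 1 member was higher with romidepsin (background 3.77%) and none was lower (0.312%). That was CYFIP2. With quisinostat CYFIP2 was higher (11.2%) and TRIM22 lower (1.03%), and with mivebresib GADD45A was higher (3.96%) and TRIM22 and FAS lower (4.36%).

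The counts for each drug rested in part on which libraries entered the fit. With only the 4 libraries compared, 5 members were called higher with mivebresib in place of 7. The share of all tested genes called is not given for the alternative fits here and below. A change in these counts can therefore not be called particular to the members. Without either romidepsin library, 2 members were called higher and 4 lower with romidepsin, and without either mivebresib library, which enters the fit through the shared estimate of spread, 3 were called higher. Without either quisinostat library, 3 were called higher with quisinostat. With library size in place of TMM, the median over all tested genes with quisinostat was a log2 FC of 0.196 and 8 members were lower in place of 12, so the small quisinostat changes below are relative to TMM scaling. By the cruder measure of libraries that do not overlap, 6 members lay higher and 13 lower in both romidepsin libraries than in both controls (background 31.2% and 32.5%), 7 and 16 with quisinostat (38.4% and 35.8%), and 9 and 13 with mivebresib (35.4% and 34.3%).

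**Figure D2:**
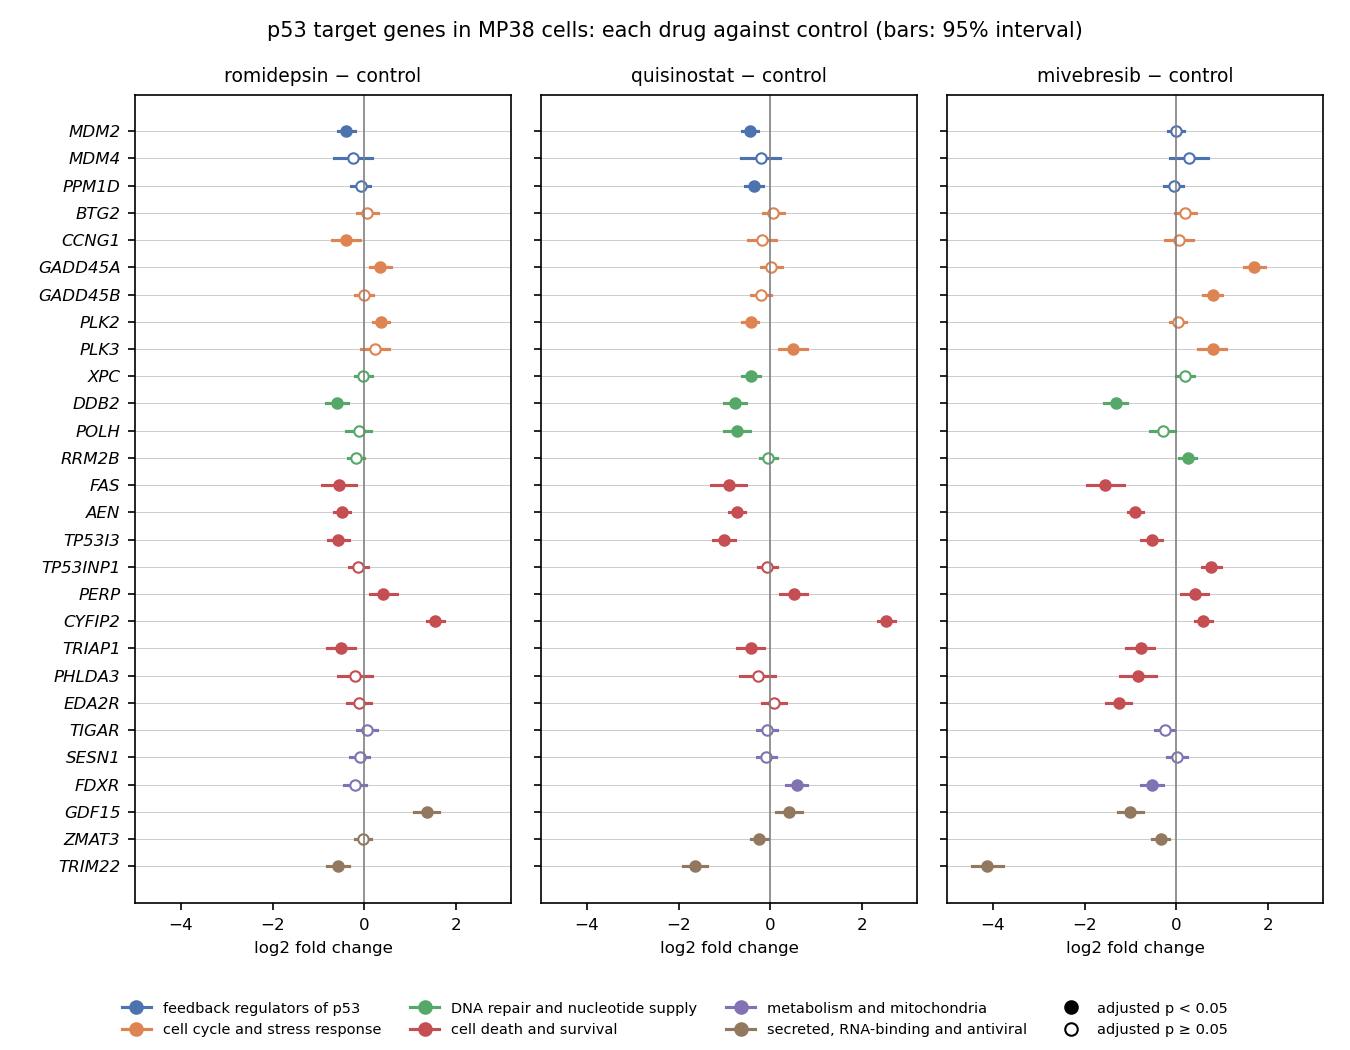
log2 fold change of the 28 tested p53 targets for each drug against control, with 95% intervals, ordered and coloured by role. Filled points had an edgeR adjusted p below 0.05. CYFIP2 stands out to the right with quisinostat at 2.53, GADD45A with mivebresib at 1.70, and TRIM22 to the left with mivebresib at -4.12.

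The classical cell cycle target of p53, CDKN1A (p21), is given for reference, since it is not among the 29. CDKN1A stood at 312 and 271 CPM in control, 309 and 336 with romidepsin, 227 and 200.3 with quisinostat and 288 and 261 with mivebresib. Only the quisinostat libraries lay wholly below the controls (log2 FC -0.45 ± 0.11 (SE), edgeR adjusted p = 0.00864). This call was lost without quisinostat replicate 2 (adjusted p = 0.0748) and when libraries were scaled by size alone. For romidepsin and mivebresib the 95% interval of the log2 FC was -0.10 to 0.40 and -0.34 to 0.16.

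Among the feedback regulators, which hold p53 in check, MDM2 was lower with both HDAC inhibitors and not with mivebresib. MDM2 (chromosome 12, 68808176 to 68850686, GRCh38) stood at 249 and 258 CPM in control, 195 and 191 with romidepsin, 185 and 188 with quisinostat and 243 and 260.1 with mivebresib. The HDAC inhibitor libraries all lay below the controls, while the mivebresib libraries overlapped them. The fall was 1.31-fold with romidepsin (log2 FC -0.39 ± 0.08 (SE), edgeR adjusted p = 0.00663) and 1.36-fold with quisinostat (log2 FC -0.44 ± 0.08 (SE), edgeR adjusted p = 0.00166), and the interval for mivebresib was -0.19 to 0.17. The romidepsin call was lost without romidepsin replicate 1 or 2 (adjusted p = 0.0551 and 0.0622). MDM4, a relative of MDM2 that masks the activation domain of p53, had no call against control, with 7.21 to 13.6 CPM over the 8 libraries. PPM1D, a phosphatase that switches off p53 and its upstream kinases, was 1.29-fold lower with quisinostat at 20.2 and 19.03 CPM against 26.4 and 24.1 in control (edgeR adjusted p = 0.00833), a call lost without quisinostat replicate 2 (adjusted p = 0.0642) and under scaling by library size or upper quartile.

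Of the 6 cell cycle and stress genes, 3 were higher and none lower with mivebresib, 2 were higher and 1 lower with romidepsin, and 1 moved each way with quisinostat. Over all tested genes 46.2%, 31% and 53.2% were called in either direction with mivebresib, romidepsin and quisinostat, so for mivebresib the 3 of 6 is near the background and for quisinostat the 2 of 6 is below it. GADD45A (chromosome 1, 67685061 to 67688338), a small nuclear protein that links stress to cell cycle arrest and repair, stood at 128 and 109.9 CPM in control, 149 and 154 with romidepsin, 127 and 114 with quisinostat and 393 and 380.1 with mivebresib. The mivebresib libraries lay far above all others, and the quisinostat libraries overlapped the controls. The rise with mivebresib was 3.25-fold (log2 FC 1.70 ± 0.10 (SE), edgeR adjusted p = 7.89e-06). With romidepsin it was 1.27-fold (edgeR adjusted p = 0.0291), a call lost in 5 of the 8 fits without 1 library, among them those without control replicate 2 (adjusted p = 0.0535), romidepsin replicate 1 (0.117), romidepsin replicate 2 (0.141) and either mivebresib library. Its relative GADD45B stood at 22.5 and 20.8 CPM in control and 37.8 and 37.03 with mivebresib, a rise of 1.73-fold (log2 FC 0.79 ± 0.09 (SE), edgeR adjusted p = 0.000178), while the 4 HDAC inhibitor libraries held 18.0 to 22.3 CPM.

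The polo-like kinases PLK2 and PLK3, which act in stress signalling and centrosome control, were both called with quisinostat, PLK2 lower and PLK3 higher. PLK2 stood at 108 and 109.7 CPM in control, 141 and 139 with romidepsin, 83.6 and 77.7 with quisinostat and 115 and 108 with mivebresib. Romidepsin thus lay above and quisinostat below every control library (log2 FC 0.36 ± 0.08 (SE), edgeR adjusted p = 0.00863, and -0.43 ± 0.08 (SE), edgeR adjusted p = 0.00172). The romidepsin call was lost without romidepsin replicate 1 or 2 (adjusted p = 0.0699 and 0.0574). PLK3 stood at 15.4 and 12.5 CPM in control and rose 1.72-fold with mivebresib to 25.5 and 22.6 CPM (edgeR adjusted p = 0.00157) and 1.41-fold with quisinostat to 20.6 and 18.9 CPM (edgeR adjusted p = 0.0125). The quisinostat call was lost without quisinostat replicate 1 (adjusted p = 0.0734). CCNG1, whose product recruits a phosphatase to MDM2, spanned 598 and 457 CPM in control and stood at 386 and 412 with romidepsin (log2 FC -0.40 ± 0.13 (SE), edgeR adjusted p = 0.0499). That call was at the threshold and was lost in 7 of the 8 fits without 1 library, all except the one without control replicate 2. BTG2, an antiproliferative gene, held 9.42 to 11.3 CPM over the 8 libraries and had no call in any comparison. Its widest interval bound against control was 0.43, for mivebresib.

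In DNA repair and nucleotide supply, the damage sensor DDB2 was lower with every drug. DDB2 (chromosome 11, 47214465 to 47239240), the subunit of the UV-damage binding complex that starts nucleotide excision repair, stood at 24.7 and 24.7 CPM in control, 17.3 and 15.3 with romidepsin, 15.3 and 13.7 with quisinostat and 9.40 and 10.4 with mivebresib. No treated library reached the control level, and the mivebresib libraries were the lowest. The falls were 1.51-fold (edgeR adjusted p = 0.00367), 1.7-fold (edgeR adjusted p = 0.000413) and 2.49-fold (log2 FC -1.32 ± 0.11 (SE), edgeR adjusted p = 3.66e-05). The partner damage sensor XPC was 1.34-fold lower with quisinostat at 49.2 and 53.3 CPM against 64.6 and 72.7 (edgeR adjusted p = 0.00347), and the translesion polymerase gene POLH 1.65-fold lower at 17.6 and 16.1 against 24.9 and 30.6 CPM (edgeR adjusted p = 0.00125). The XPC call was lost under scaling by library size alone, and 318 bases of XPC exons overlap LSM3 on the other strand, where the strand setting of the counting is not given in the sources used here. RRM2B, the p53-inducible subunit of ribonucleotide reductase, which makes deoxynucleotides, stood at 593 and 570.1 CPM in control and 690.3 and 690.2 with mivebresib (log2 FC 0.25 ± 0.08 (SE), edgeR adjusted p = 0.0343). This rise of 1.19-fold lost its call in the 6 fits that left out 1 drug-treated library (adjusted p up to 0.124, without mivebresib replicate 1), and with a replicate block.

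The cell death and survival genes split into a larger group that fell and a smaller group that rose. With mivebresib, all 9 were called, 6 lower and 3 higher, and with each HDAC inhibitor 4 were lower and 2 higher, beside a background of 46.2% called in either direction with mivebresib, 31% with romidepsin and 53.2% with quisinostat. FAS (chromosome 10, 88990582 to 89015785), the death receptor for FAS ligand, stood at 18.9 and 25.3 CPM in control, 16.6 and 13.4 with romidepsin, 10.6 and 12.8 with quisinostat and 7.39 and 7.69 with mivebresib. All treated libraries lay below both controls, which themselves differed. The fall was 2.93-fold with mivebresib (log2 FC -1.55 ± 0.17 (SE), edgeR adjusted p = 0.000175), 1.88-fold with quisinostat (edgeR adjusted p = 0.00193) and 1.47-fold with romidepsin (edgeR adjusted p = 0.0332). The romidepsin call was lost in 7 of the 8 fits without 1 library, all except the one without control replicate 1, with adjusted p up to 0.181 without romidepsin replicate 2.

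AEN, an apoptosis-enhancing nuclease, and TP53I3, an oxidoreductase linked to reactive oxygen species, were lower with every drug. AEN stood at 94.4 and 94.04 CPM in control, 67.5 and 67.3 with romidepsin, 58.03 and 55.5 with quisinostat and 52.6 and 48.9 with mivebresib. The groups did not overlap with the control, and replicates were close. AEN fell 1.4-fold (edgeR adjusted p = 0.00214), 1.66-fold (edgeR adjusted p = 8.52e-05) and 1.86-fold (log2 FC -0.89 ± 0.08 (SE), edgeR adjusted p = 4.05e-05). TP53I3 stood at 27.1 and 23.5 CPM in control, 16.7 and 17.4 with romidepsin, 12.7 and 12.5 with quisinostat and 18.2 and 16.5 with mivebresib. Its lowest libraries were those of quisinostat, at 2.01-fold below control (log2 FC -1.01 ± 0.10 (SE), edgeR adjusted p = 8.31e-05), and its exons overlap FAM228B on the other strand over 80 bases. TRIAP1, which restrains apoptosis at mitochondria, fell 1.72-fold with mivebresib from 34.7 and 27.8 to 19.7 and 16.6 CPM (edgeR adjusted p = 0.00169), with smaller falls under romidepsin (1.42-fold) and quisinostat (1.35-fold). Those smaller calls were lost without control replicate 1 (adjusted p = 0.074 and 0.0835), without romidepsin replicate 1 or 2 for romidepsin (0.13 and 0.0786) and without quisinostat replicate 2 for quisinostat (0.137).

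EDA2R and PHLDA3 were called lower with mivebresib and had no call against control with either HDAC inhibitor. EDA2R (chromosome X, 66595637 to 66639298), a receptor of the TNF receptor family, stood at 20.4 and 21.3 CPM in control, 20.98 and 17.7 with romidepsin, 21.4 and 22.7 with quisinostat and 8.01 and 9.35 with mivebresib. The other 6 libraries held 17.7 to 22.7 CPM, and both mivebresib libraries lay below all of them. The fall with mivebresib was 2.4-fold (log2 FC -1.26 ± 0.12 (SE), edgeR adjusted p = 7.36e-05), and 2.23-fold when set against romidepsin (edgeR adjusted p = 0.000108). PHLDA3, an inhibitor of AKT, stood at 67.5 and 46.9 CPM in control and 34.6 and 29.7 with mivebresib (log2 FC -0.83 ± 0.17 (SE), edgeR adjusted p = 0.00398). All 3 other groups held 44.3 to 67.5 CPM. Of the 2693 exon bases of PHLDA3, 598 overlap AC096677.2 on the same strand, which is not among the gene symbols counted.

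CYFIP2, PERP and TP53INP1 were the members of this group that rose. CYFIP2 (chromosome 5, 157266079 to 157395595), a subunit of the actin-regulating WAVE complex, stood at 26.9 and 25.4 CPM in control, 74.7 and 78.3 with romidepsin, 151 and 151 with quisinostat and 40.5 and 38.00 with mivebresib. The 4 groups were fully separate, in the order quisinostat, romidepsin, mivebresib and control. The rise was 5.78-fold with quisinostat (log2 FC 2.53 ± 0.08 (SE), edgeR adjusted p = 6.77e-07), 2.92-fold with romidepsin (log2 FC 1.55 ± 0.08 (SE), edgeR adjusted p = 3.64e-05) and 1.5-fold with mivebresib (log2 FC 0.59 ± 0.08 (SE), edgeR adjusted p = 0.000487). TP53INP1, which promotes autophagy and cell death, stood at 115 and 112 CPM in control and 179 and 207 with mivebresib, a rise of 1.7-fold (log2 FC 0.76 ± 0.09 (SE), edgeR adjusted p = 0.000228), while the HDAC inhibitor libraries held 101 to 109 CPM. PERP, a desmosome-associated membrane protein, stood at 95.9 and 129 CPM in control and at 146 to 167 CPM in the 6 treated libraries, all above both controls. Its log2 FC was 0.42, 0.52 and 0.40 with romidepsin, quisinostat and mivebresib (edgeR adjusted p = 0.0414, 0.00985 and 0.0328). The quisinostat call was lost without quisinostat replicate 2 (adjusted p = 0.0704), and the calls for romidepsin and mivebresib were lost in all fits without 1 library except that without control replicate 2 (adjusted p up to 0.196 and 0.13, without replicate 1 of the drug).

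**Figure D3:**
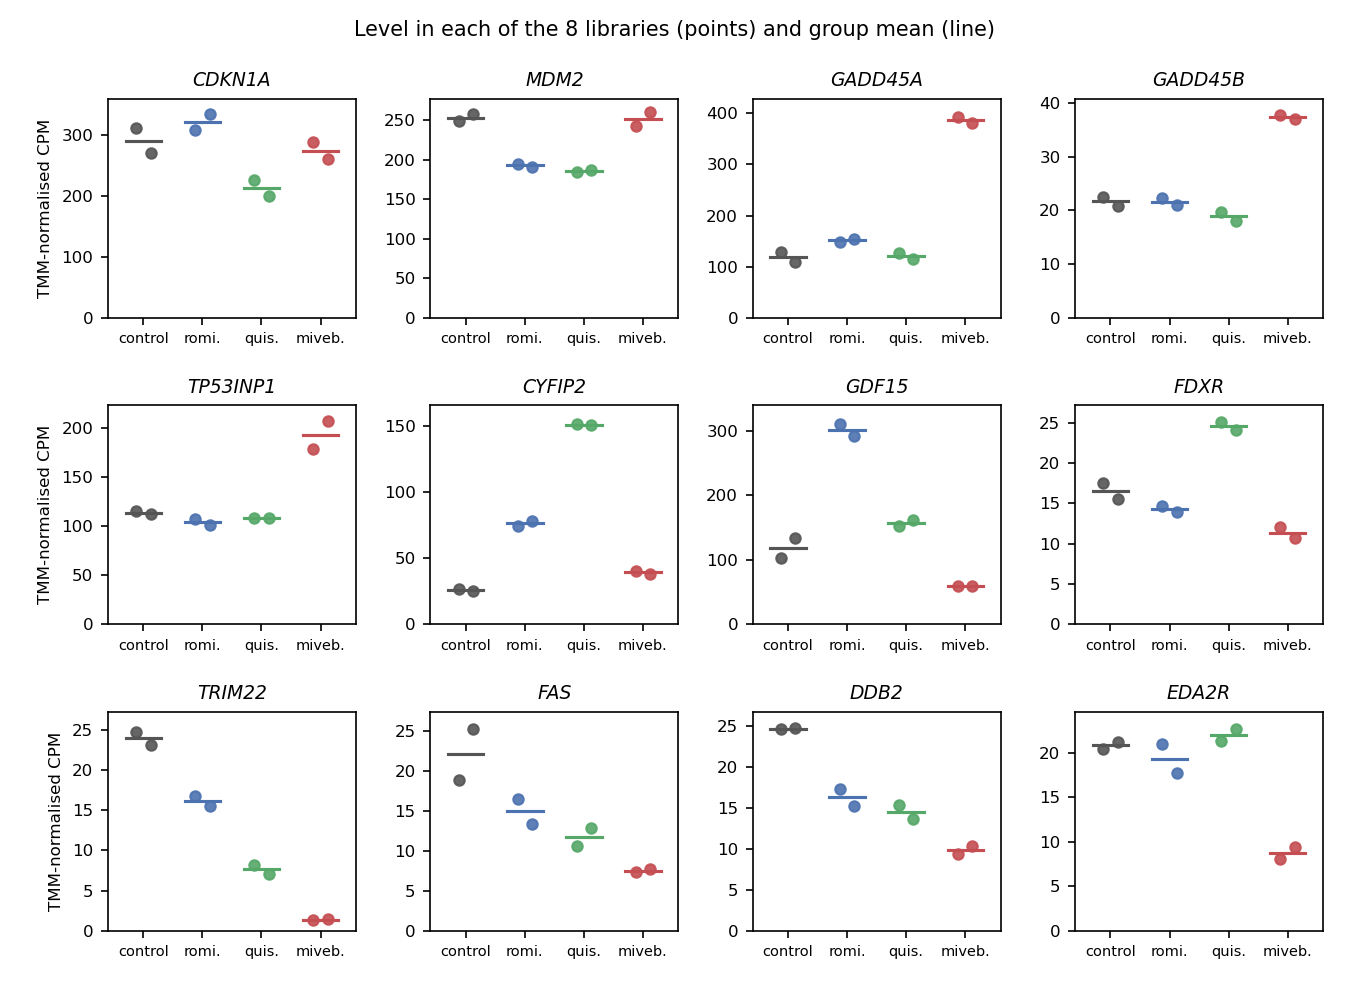
Level of 11 p53 targets and of CDKN1A in each library, as TMM-normalised CPM on axes that start at 0, with points for libraries and lines for group means (2 libraries each; romi., romidepsin; quis., quisinostat; miveb., mivebresib). GADD45A, GADD45B and TP53INP1 are highest with mivebresib, GDF15 is highest with romidepsin, and CYFIP2 and FDXR are highest with quisinostat.

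Of the 3 tested metabolic genes, FDXR alone passed the test against control, in opposite directions with quisinostat and mivebresib. FDXR, the mitochondrial ferredoxin reductase, stood at 17.6 and 15.5 CPM in control, 14.6 and 13.9 with romidepsin, 25.1 and 24.1 with quisinostat and 12.03 and 10.7 with mivebresib. The quisinostat libraries lay above and the mivebresib libraries below all others. FDXR rose 1.49-fold with quisinostat (log2 FC 0.58 ± 0.10 (SE), edgeR adjusted p = 0.00159) and fell 1.45-fold with mivebresib (log2 FC -0.54 ± 0.11 (SE), edgeR adjusted p = 0.00336). TIGAR, a fructose bisphosphatase that slows glycolysis, held 53.9 to 70.9 CPM and SESN1, a stress-induced inhibitor of mTORC1 signalling, 24.0 to 28.7 CPM, with no call against control. The intervals of the log2 FC of SESN1 stayed within -0.31 and 0.23, while that of TIGAR with mivebresib was -0.46 to -0.04 (edgeR adjusted p = 0.0545). Of the 3776 exon bases of TIGAR, 1711 overlap AC008012.1 on the same strand, which is not among the gene symbols counted.

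GDF15, a secreted protein, moved in both directions. GDF15 (chromosome 19, 18374731 to 18389176), a stress cytokine of the TGF-beta superfamily, stood at 102 and 133 CPM in control, 311 and 292 with romidepsin, 152 and 161 with quisinostat and 58.8 and 59.1 with mivebresib. The 4 groups did not overlap, in the order romidepsin, quisinostat, control and mivebresib. GDF15 was 2.56-fold higher with romidepsin (log2 FC 1.36 ± 0.12 (SE), edgeR adjusted p = 0.000171) and 2-fold lower with mivebresib (log2 FC -1.0 ± 0.12 (SE), edgeR adjusted p = 0.000284). The neighbours quisinostat and control differed least (log2 FC 0.41 ± 0.12 (SE), edgeR adjusted p = 0.0194), and this call was lost without quisinostat replicate 1 (adjusted p = 0.0527) or 2 (0.119).

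TRIM22 (chromosome 11, 5689689 to 5737089), an interferon- and p53-inducible antiviral ubiquitin ligase, fell in steps. It stood at 24.8 and 23.2 CPM in control, 16.8 and 15.5 with romidepsin, 8.20 and 7.07 with quisinostat and 1.28 and 1.47 with mivebresib, the last from 35 and 41 counts. No groups overlapped. The falls were 1.49-fold (edgeR adjusted p = 0.00515), 3.14-fold (log2 FC -1.65 ± 0.11 (SE), edgeR adjusted p = 1.04e-05) and 17.4-fold (log2 FC -4.12 ± 0.14 (SE), edgeR adjusted p = 9.97e-07), and all 3 calls held in every fit without 1 library. ZMAT3, an RNA-binding regulator of splicing and mRNA stability, fell 1.26-fold with mivebresib from 105 and 94.7 to 80.7 and 77.3 CPM (edgeR adjusted p = 0.00883), a call lost without mivebresib replicate 2 (adjusted p = 0.0671). Its quisinostat fall of 1.18-fold (edgeR adjusted p = 0.036) was lost in 7 of the 8 fits without 1 library, all except the one without control replicate 2.

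The drugs were then compared directly, romidepsin and quisinostat at the same dose of 40 nM and mivebresib at 1200 nM, so that the latter comparisons also differ in dose. Between the 2 HDAC inhibitors, which are a cyclic depsipeptide (romidepsin) and a hydroxamic acid (quisinostat), 9 of 28 members were higher with romidepsin and 2 lower, against a background of 14.6% and 21% (35.6% in either direction). None differed by more than 1.5, a size passed by 0.179% of tested genes upwards and 5.41% downwards. The largest differences were in TRIM22, 2.11-fold higher with romidepsin (log2 FC 1.08 ± 0.11 (SE), edgeR adjusted p = 0.000326), GDF15, 1.93-fold higher (log2 FC 0.95 ± 0.12 (SE), edgeR adjusted p = 0.000721), and PLK2, 1.74-fold higher (log2 FC 0.80 ± 0.08 (SE), edgeR adjusted p = 0.00023). In the other direction, CYFIP2 was 1.98-fold lower (log2 FC -0.98 ± 0.08 (SE), edgeR adjusted p = 0.000101) and FDXR 1.72-fold lower with romidepsin (log2 FC -0.79 ± 0.10 (SE), edgeR adjusted p = 0.000771). These 5 calls held in every fit without 1 library. The other 6, all higher with romidepsin by a log2 difference of 0.25 to 0.60, were AEN, PPM1D, GADD45A, XPC, TP53I3 and POLH. Each of these 6 lost its call without romidepsin replicate 1, and 3 to 5 members were called higher without 1 romidepsin or quisinostat library. With library size in place of TMM, 5 members were higher and 4 lower, where the median log2 FC over all tested genes was -0.187. MDM2 did not pass the test between the HDAC inhibitors, with an interval of -0.13 to 0.23.

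Against quisinostat, mivebresib had 11 members higher and 8 lower (background 26.2% and 31.5%, or 57.7% in either direction), and all 28 were non-overlapping, against 82.1% of tested genes. With library size in place of TMM the counts were 6 higher and 12 lower, and with upper-quartile factors 8 and 11. The median log2 FC over all tested genes was then -0.212 and -0.117. GADD45A was 3.2-fold higher (log2 FC 1.68 ± 0.10 (SE), edgeR adjusted p = 4.44e-06), GADD45B 1.98-fold (edgeR adjusted p = 3.43e-05) and TP53INP1 1.78-fold (edgeR adjusted p = 9.43e-05). TRIM22 was 5.53-fold lower with mivebresib (log2 FC -2.47 ± 0.15 (SE), edgeR adjusted p = 4.79e-06), CYFIP2 3.85-fold (edgeR adjusted p = 1.07e-06), GDF15 2.66-fold (edgeR adjusted p = 2.95e-05) and EDA2R 2.54-fold (edgeR adjusted p = 3.22e-05). Beyond a log2 FC of 1.5, GADD45A was higher (background 1.73%) and TRIM22 and CYFIP2 lower (12.6%).

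Against romidepsin, mivebresib had 8 members higher and 12 lower (background 23.7% and 25.2%, or 48.9% in either direction). Beyond a log2 FC of 1.5, none was higher (background 2.52%) and GDF15 and TRIM22 were lower (6.7%). GDF15 was 5.11-fold lower with mivebresib (log2 FC -2.35 ± 0.13 (SE), edgeR adjusted p = 4.7e-06) and TRIM22 11.7-fold lower (log2 FC -3.55 ± 0.15 (SE), edgeR adjusted p = 1.76e-06), while MDM2 was 1.3-fold higher (log2 FC 0.38 ± 0.08 (SE), edgeR adjusted p = 0.00399). Without mivebresib replicate 2, the members called lower numbered 7, and without romidepsin replicate 1, those called higher numbered 5. Calls of MDM4, higher with mivebresib than with romidepsin (log2 FC 0.53) or quisinostat (0.49), rested in part on mivebresib replicate 2 at 13.6 CPM, without which the log2 FC was 0.25 and 0.22 and neither passed. Both calls were also lost with DESeq2, with limma-voom, and under scaling by library size or upper quartile. The same held at a mean CPM of at least 5.

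**Figure D4:**
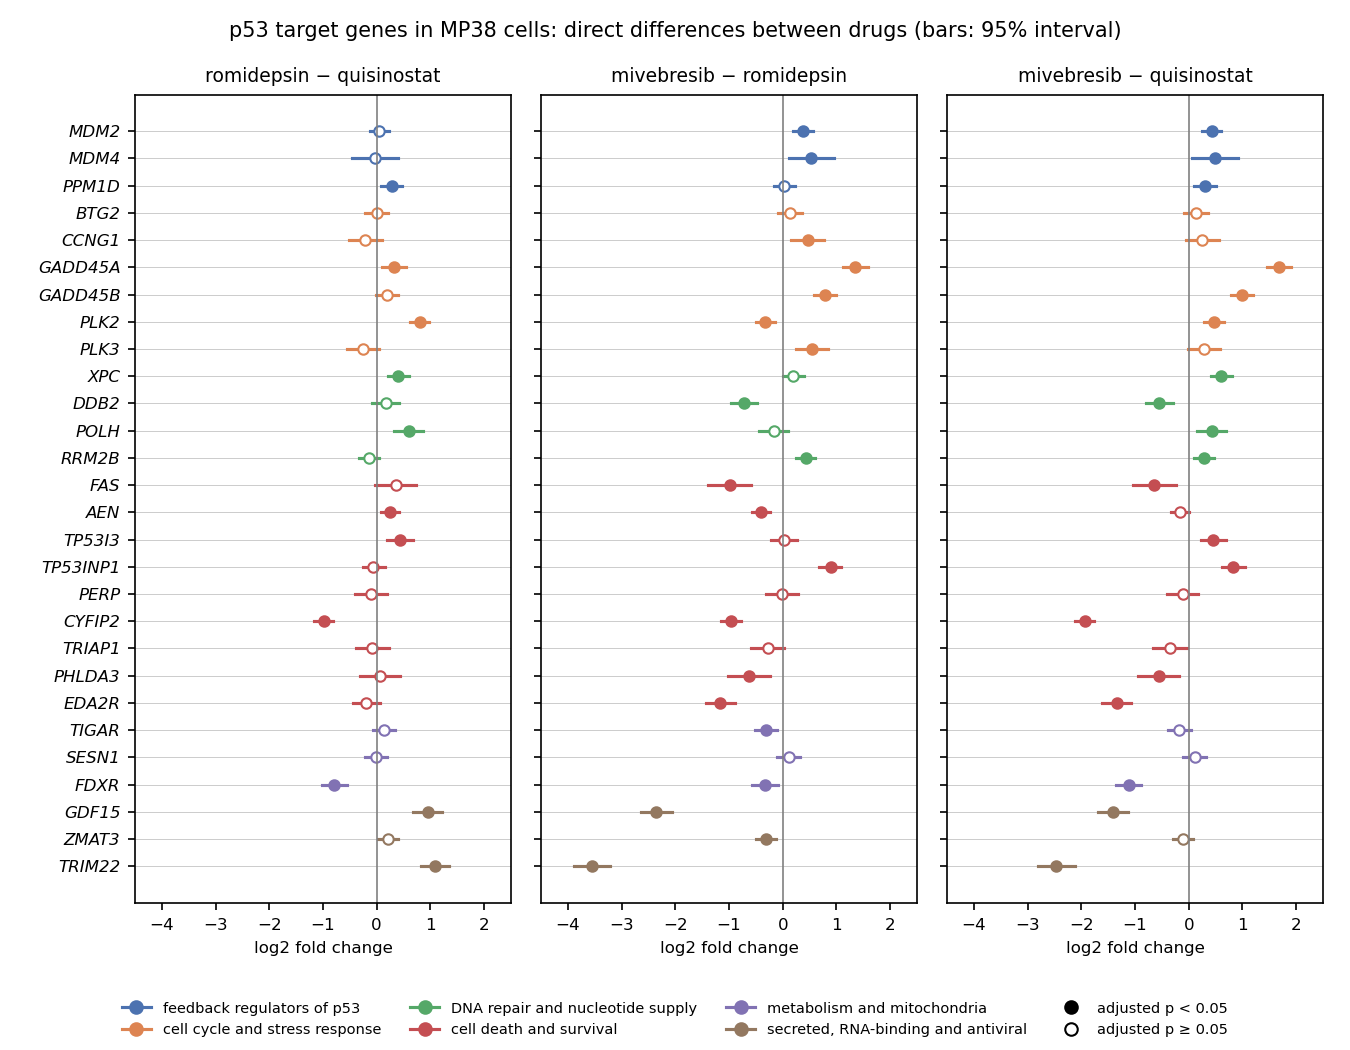
log2 difference of the 28 tested p53 targets between each pair of drugs, with 95% intervals, ordered and coloured by role. Filled points had an edgeR adjusted p below 0.05. Romidepsin and quisinostat differ by at most 1.08 in size (TRIM22), while mivebresib differs from romidepsin by -3.55 in TRIM22 and -2.35 in GDF15.

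The 5 members with a promoter match can be read against the sequences above. DDB2, FAS and AEN were lower with each drug, MDM2 was lower with the HDAC inhibitors, and FDXR was higher with quisinostat and lower with mivebresib. The windows of CYFIP2 and GDF15 held no match, which says only that these letters are not in that stretch.

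Other genes of the pathway also changed. Over all tested genes, 31%, 53.2% and 46.2% were called in either direction with romidepsin, quisinostat and mivebresib. Among 15 upstream genes (relatives of p53, damage kinases and acetyltransferases), 13 were tested, with 1 higher and 5 lower with romidepsin, 2 and 6 with quisinostat and 1 and 6 with mivebresib. Among 30 further p53 targets, 27 were tested. With romidepsin 4 of them changed, all lower, a share below the background. With quisinostat 5 were higher and 10 lower, near the background, and with mivebresib 8 were higher and 9 lower, above it. Their median log2 FC was -0.122, -0.235 and 0.136. Past a log2 FC of 1.5, LIF, a cytokine, fell with mivebresib from 2.30 and 2.74 to 0.293 and 0.611 CPM (log2 FC -2.46 ± 0.37 (SE), edgeR adjusted p = 0.000812). The decoy receptor gene TNFRSF10C fell with mivebresib from 56 and 57 counts to 1 and 4 (log2 FC -4.42 ± 0.52 (SE), edgeR adjusted p = 0.000215), a size that depends on few counts.

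Of 21 paralogues of the members, 18 were tested, with 3 higher and 5 lower with romidepsin, 5 and 6 with quisinostat and 7 and 6 with mivebresib. The background called in either direction was 31%, 53.2% and 46.2%, as above. Those past a log2 FC of 1.5 are given beside the p53 target of the same family. RRM2, the cell cycle counterpart of RRM2B, fell with quisinostat from 169 and 178 to 29.5 and 28.01 CPM (log2 FC -2.59 ± 0.08 (SE), edgeR adjusted p = 6.49e-07), where RRM2B had an interval of -0.23 to 0.14. SESN3 rose with quisinostat from 27.2 and 27.8 to 106 and 109.5 CPM (log2 FC 1.97 ± 0.08 (SE), edgeR adjusted p = 8.88e-07), beside an interval of -0.30 to 0.12 for SESN1. PLK4, the kinase of centriole duplication, fell with quisinostat from 23.2 and 24.2 to 5.95 and 6.17 CPM (log2 FC -1.97 ± 0.09 (SE), edgeR adjusted p = 2.36e-06), and TRIM34, a neighbour and relative of TRIM22, rose with quisinostat from 2.73 and 2.92 to 9.78 and 9.39 CPM (log2 FC 1.76 ± 0.28 (SE), edgeR adjusted p = 0.00084) where TRIM22 fell. RRM2, SESN3 and PLK4 were also called in the same direction with the other drugs, by less than 1.5. Over the fits without 1 library, their log2 FC with romidepsin was -1.47 to -1.41, 0.88 to 0.93 and -1.37 to -1.31. With mivebresib it was -1.07 to -1.0, 1.41 to 1.46 and -0.84 to -0.78. TRIM34 was instead called lower with mivebresib, as TRIM22 was, with a log2 FC of -1.83 to -0.6 over those fits. That TRIM34 call was lost with only the 4 libraries compared.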

How the data were processed

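RNA from MP38 cells was sequenced as strand-specific mRNA libraries, 2 per group in 4 groups. Per the labels, reads were placed on hg38, and the authors made the tables with BioJupies. The aligner, the annotation and the strand setting are not given in the sources used here. The deposited counts are reads per gene symbol, not normalized. The authors' log10 table holds log10(CPM + 1) and was used for 1 alternative, converted to log2. A quantile-normalized table was not used, since its scale is not named. Groups came from the treatment labels. The 29 members, the other gene lists and the alternatives were chosen with earlier results of these data known, and all members are named.

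Counts of all 8 libraries entered 1 model in edgeR 4.0.16 (R 4.3.3) with TMM factors, filterByExpr by group and the quasi-likelihood test, adjusted by Benjamini-Hochberg over 15085 genes, with a biological coefficient of variation of 0.0938. The code was tested on simulated data. Alternatives used DESeq2 1.42.0, limma 3.58.1 (voom, and the log10 table), other scaling factors and filters, only the 4 libraries compared, a replicate block, stricter thresholds, and each library left out in turn, where the lone library is assumed to vary like the other groups. Total counts ran from 28483235 to 29359024, so 2 libraries per group, rather than depth, limit the precision, except for genes of few counts. Of the other pathway genes and paralogues, those past an adjusted p of 0.05 and a log2 FC of 1.5 against control were named, with CDKN1A, and of the cell type markers a few chosen after their values were seen. Some genes of those lists are not reported here. Exon lengths and overlaps came from GENCODE 29 on GRCh38, and promoters from RefSeq on GRCh38.p14. Tables and figures were made with Python 3.11.15, pandas 2.3.3 and matplotlib 3.10.9.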

Additional observations from a re-analysis of the deposited data

How the results depend on the processing

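Over 6 comparisons, 98 member results were called, and 62 of these calls were kept in every fit without 1 library. Over the alternative fits, stricter thresholds aside, 203 of 1764 values lost the call and none reversed, and of 1260 values of results that were not called, 51 became called and 108 changed sign. With romidepsin, 3 members were higher and 4 lower with only the 4 libraries compared, 2 to 5 higher and 4 to 8 lower without 1 library, 1 and 0 past a log2 FC of 1.5, and 3 and 5 at an adjusted p below 0.01. The median was -0.042 with library size alone and with the log CPM table, -0.03 with upper-quartile factors, -0.056 at a mean CPM of at least 5, and -0.15 to -0.081 without 1 library. With quisinostat, 3 to 5 were higher and 9 to 15 lower without 1 library, 1 and 1 past a log2 FC of 1.5 and 3 higher at an adjusted p below 0.01, and the median was -0.006 with library size alone, -0.01 with the log CPM table and -0.29 to -0.099 without 1 library. With mivebresib, 5 to 8 were higher and 10 to 12 lower without 1 library, and 1 and 2 past 1.5. Its median of -0.034 was 0.012 with upper-quartile factors and -0.121 to -0.014 without 1 library. Between romidepsin and quisinostat, 5 were higher and 4 lower with library size alone, 5 higher with the log CPM table, 3 to 12 higher and 2 lower without 1 library, 0 and 0 past 1.5, and 5 higher at an adjusted p below 0.01. Between mivebresib and romidepsin, 5 to 9 were higher and 7 to 13 lower without 1 library, and 0 and 2 past 1.5. Between mivebresib and quisinostat, 6 were higher with library size alone and with the log CPM table, 7 higher at an adjusted p below 0.01, 8 to 13 higher and 6 to 9 lower without 1 library, and 1 and 2 past 1.5. With fewer libraries the number of calls fell in some comparisons and rose in others. The share of all tested genes called in each alternative is not given, so these counts cannot be set against a background. The causes were not tested.

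The groups share replicate numbers only by name. The correlation of deviations of same-numbered libraries ran from -0.407 (control and romidepsin) to 0.356 (control and quisinostat), so the numbers were not taken as pairs. Romidepsin correlated negatively with each other group (-0.407 to -0.18), and the other groups positively with each other (0.184 to 0.356). A replicate block kept 97 of 98 calls, lost RRM2B with mivebresib and gained 2 of 70. A block on these numbers cannot take up variation shared by libraries of different numbers.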
